A study of Mus musculus with 12 samples.

Results

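The genes described here mark pericytes and vascular smooth muscle, the mural cells that wrap the vessels of the brain. They are Acta2, Myl9, Tagln, Myh11, Pdgfrb, Rgs5, Kcnj8, Abcc9, Notch3 and Vtn, selected by gene symbol from 55401 gene identifiers in a table of raw counts. The choice was made with results of these same libraries in view, so the differences between groups given below describe these genes and test nothing about them. All 10 passed the filter on low counts, which left 21958 genes. For description they were divided into 4 contractile genes of smooth muscle (Acta2, Myl9, Tagln and Myh11) and 6 genes of pericytes or of mural cells in general (Pdgfrb, Rgs5, Kcnj8, Abcc9, Notch3 and Vtn).

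Medial prefrontal cortex (mPFC) was taken in bulk from males after 2 weeks of CPP extinction, CPP being conditioned place preference, the choice of a chamber that a drug was paired with. Each of 3 groups had 4 libraries: mice given AAV-Scramble (an adeno-associated virus with a scrambled control sequence) and saline, mice given AAV-Scramble and morphine, and mice given a knockdown virus for the serotonin receptor 5-HT6R and morphine. All 3 groups therefore share virus delivery and extinction, and there was no knockdown group with saline. No source used here gives the age, the strain, the promoter of the virus or the cells it reached. Nor do the labels say whether the 4 libraries of a group are 4 mice, so every p-value rests on the spread between libraries alone, which may be technical.

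Pericytes sit on capillaries within the basement membrane, and smooth muscle cells ring arterioles and contract to set blood flow. Endothelial cells recruit both with the ligand PDGF-B, which binds the receptor encoded by Pdgfrb, and keep arterial smooth muscle mature by presenting Notch ligands to the receptor encoded by Notch3. The contractile genes are classic targets of serum response factor (SRF) and its partners, which bind a short DNA element called the CArG box. Markers of the 2 cell states overlap, and no gene used here belongs to 1 cell type in every tissue. In bulk tissue, more cells of a type and more RNA per cell cannot be told apart.

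The stretches of DNA just upstream of an annotated start of 4 of these genes are shown because the contractile genes varied together across libraries and so did Rgs5 and Abcc9. RefSeq promoter sequences on GRCm38.p6, the assembly of mm10, were matched for 7 of the 10 genes. None was at hand for Tagln, Myh11 or Pdgfrb. Each run below holds the 250 bases before the start used by that promoter set, 5′ to 3′ on the gene's strand. Capitals mark CArG boxes, CArG boxes with 1 core base other than A or T, and TGGGAA, the core letters bound by the Notch partner RBPJ. The gene spans given later come from GENCODE M21 and can start elsewhere. By those spans, parts of the Acta2, Myl9 and Abcc9 runs lie inside the gene, including all capitals of Acta2. Acta2 is taken from chr19:34255374-34255623 (minus strand), Myl9 from chr2:156775214-156775463 (plus strand), Rgs5 from chr1:169655251-169655500 (plus strand) and Abcc9 from chr6:142702275-142702524 (minus strand).
Acta2: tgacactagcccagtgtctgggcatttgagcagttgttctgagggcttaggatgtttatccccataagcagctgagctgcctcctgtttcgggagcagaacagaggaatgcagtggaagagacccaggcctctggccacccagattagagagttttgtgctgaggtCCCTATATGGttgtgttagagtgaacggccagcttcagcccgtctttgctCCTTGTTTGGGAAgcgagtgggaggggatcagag
Myl9: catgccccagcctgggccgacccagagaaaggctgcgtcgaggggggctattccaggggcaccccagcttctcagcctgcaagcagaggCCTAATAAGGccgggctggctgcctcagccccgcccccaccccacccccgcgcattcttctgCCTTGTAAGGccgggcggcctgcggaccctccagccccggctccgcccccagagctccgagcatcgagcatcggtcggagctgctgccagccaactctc
Rgs5: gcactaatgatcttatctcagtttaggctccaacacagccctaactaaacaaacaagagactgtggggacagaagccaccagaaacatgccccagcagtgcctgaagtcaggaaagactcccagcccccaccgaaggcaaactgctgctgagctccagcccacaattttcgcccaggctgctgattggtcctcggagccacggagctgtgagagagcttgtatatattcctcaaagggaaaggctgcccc
Abcc9: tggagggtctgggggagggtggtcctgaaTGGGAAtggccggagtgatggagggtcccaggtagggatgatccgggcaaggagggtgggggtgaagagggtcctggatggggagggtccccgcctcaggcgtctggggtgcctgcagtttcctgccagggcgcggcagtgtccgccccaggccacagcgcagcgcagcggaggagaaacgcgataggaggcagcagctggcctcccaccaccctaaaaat

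Both contractile promoters shown, those of Acta2 and Myl9, held CArG-type elements and neither of the pericyte promoters shown did. Myl9 had 1 full CArG box, CCTAATAAGG at bases 90 to 99 of its run, and 1 element with a base outside A and T in its core, CCTTGTAAGG at bases 152 to 161. Acta2 had 2 of the latter kind, CCCTATATGG at bases 167 to 176 and CCTTGTTTGG at bases 217 to 226, and its TGGGAA overlapped the second of these. The letters TGGGAA, sought on both strands in windows of 250 bases before to 50 after the start, were also found in Kcnj8, Abcc9 and Vtn, while Rgs5 and Notch3 held none of the motifs searched. Over 32851 promoter windows of the same length, 1.63% held a full CArG box, 8.50% held one with 1 core base outside A and T, and 25.6% held TGGGAA. A match describes letters and is not evidence of binding.

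Library totals ran from 41483220 to 65739423 counts. Htr6, the gene of the receptor targeted by the knockdown virus, lay between 4.35 and 7.98 CPM (the usual unit of sequencing depth-scaled counts, here with library sizes adjusted by the trimmed mean of M-values) with scramble and saline, between 4.82 and 5.58 with scramble and morphine, and between 3.82 and 5.46 with knockdown and morphine, so the ranges overlapped and "knockdown" below is the label of the group. The share of counts at a ribosomal RNA locus differed between groups, at 3.58 to 5.63% with saline, 2.38 to 3.04% with scramble and morphine, and 4.57 to 9.38% with knockdown, the highest value being knockdown replicate 1. The same library also had the highest summed level of 19 fibroblast markers (760 CPM). Knockdown replicate 1 was the highest of all 12 libraries for 8 of the 10 mural genes, and knockdown replicate 2 was the lowest of its group for 8 of 10.

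**Figure D1:**
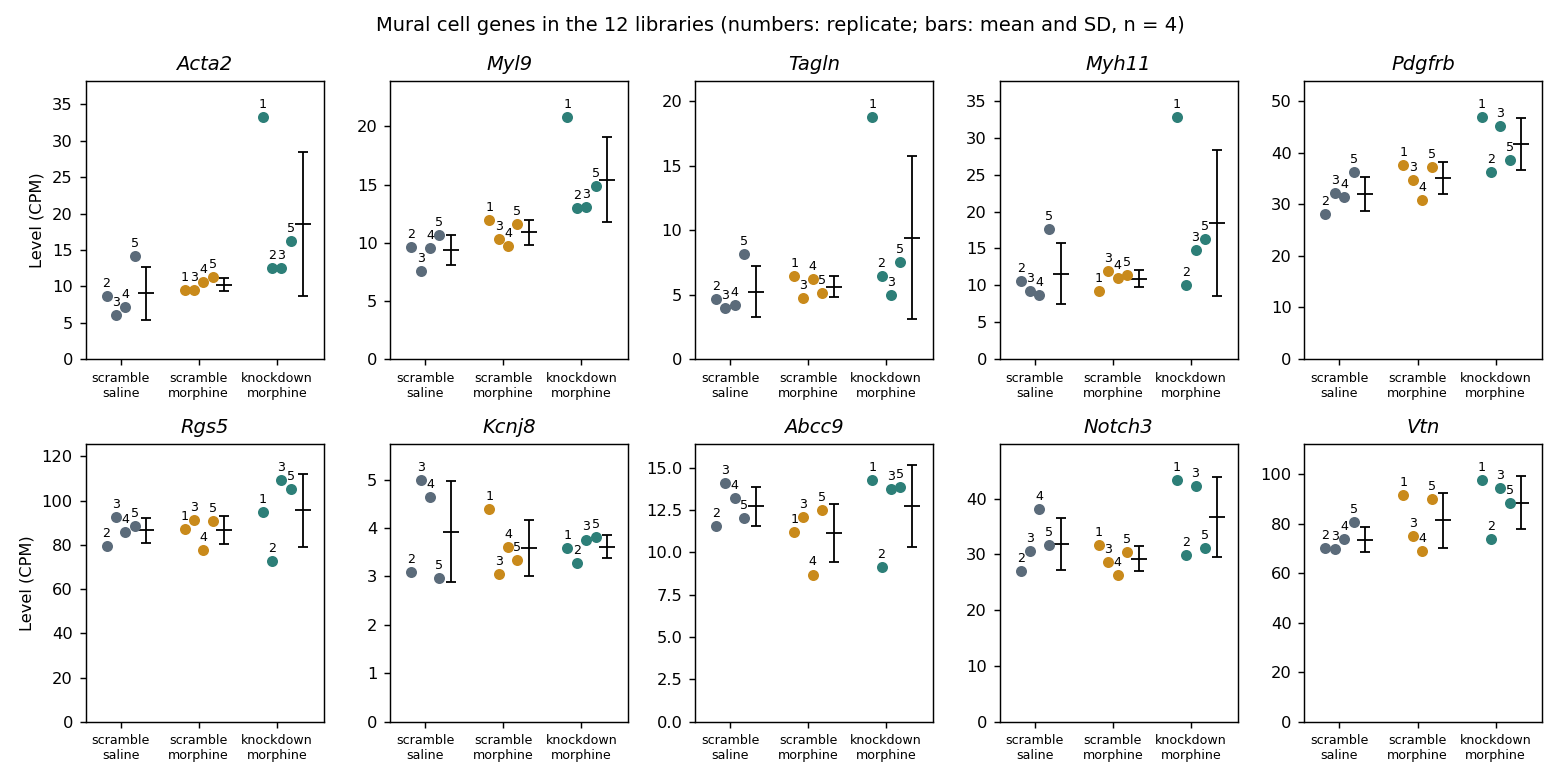
Level of each mural cell gene (y axis, CPM) in the 12 libraries by group (x axis), with points numbered by replicate and bars for the mean and SD of 4 libraries. Knockdown replicate 1 stands above the other libraries for Acta2 (33.2 CPM), Myl9 (20.8), Tagln (18.8) and Myh11 (32.8), while the groups overlap for Kcnj8, Abcc9 and Rgs5.

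Compared per length, the genes covered a wide range of levels. Levels per kilobase of exon (CPM divided by the length of the merged exons in GENCODE M21) were highest for Vtn, which encodes the matrix protein vitronectin, at 40.0 ± 5.22 (SD, n = 12 libraries). Rgs5, a regulator of G-protein signalling enriched in pericytes, followed at 19.7 ± 2.33. Myl9, the regulatory light chain of smooth muscle myosin, came next at 10.2 ± 2.94, before Pdgfrb at 6.62 ± 1.01 and Acta2 at 5.74 ± 3.23. Notch3 stood at 4.03 ± 0.694, Tagln at 3.40 ± 2.01 and Myh11 at 1.79 ± 0.879. Abcc9 and Kcnj8 were lowest, both at 1.46, with SDs of 0.220 and 0.256. In this order Vtn exceeded Rgs5, Rgs5 exceeded Myl9, Myl9 exceeded Pdgfrb and Tagln exceeded Myh11 in 12 of 12 libraries. Neighbours nearer to each other were Pdgfrb and Acta2, Acta2 and Notch3, and Notch3 and Tagln, each ordered the same way in 10 of 12 libraries, and Myh11 and Abcc9 in 9 of 12. Abcc9 exceeded Kcnj8 in 7 of 12, and those neighbours did not differ beyond their spread.

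**Figure D2:**
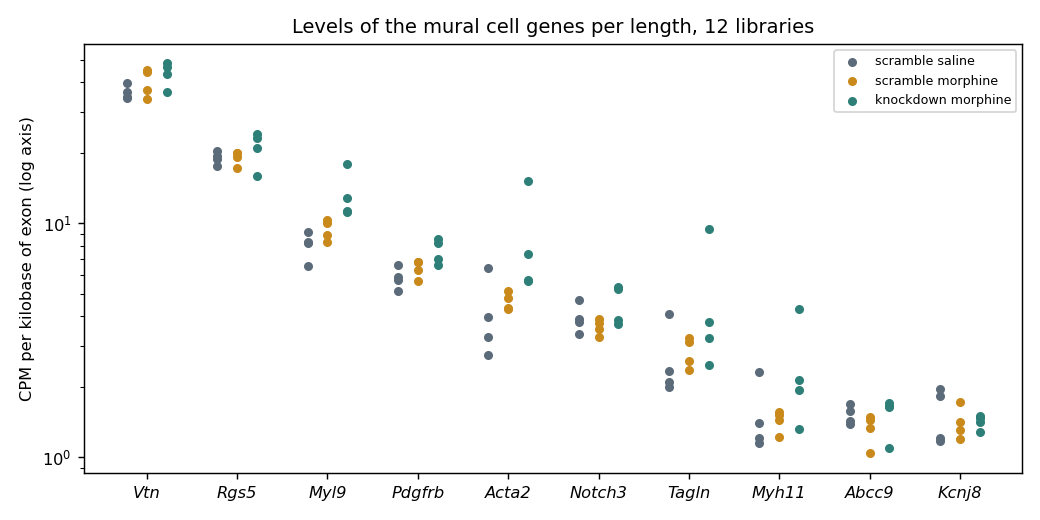
CPM per kilobase of exon (y axis, log scale) for each of the 10 genes (x axis, ordered by mean), 1 point per library coloured by group. Means fall from 40.0 for Vtn to 1.46 for Abcc9 and Kcnj8, and the highest point of each contractile gene is knockdown replicate 1.

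The contractile genes had higher mean levels in the knockdown group than in either scramble group, and 1 library, knockdown replicate 1, was far above the rest. Acta2 encodes smooth muscle alpha-actin and lies at chromosome 19, 34241090 to 34255590 (mm10, minus strand). It measured 8.69, 6.01, 7.19 and 14.1 CPM in scramble saline replicates 2, 3, 4 and 5, then 9.49, 9.43, 10.5 and 11.3 CPM in scramble morphine replicates 1, 3, 4 and 5, and 33.2, 12.5, 12.5 and 16.2 CPM in knockdown morphine replicates 1, 2, 3 and 5. All 4 knockdown libraries were above all 4 scramble morphine libraries, but saline replicate 5 overlapped them. Group means were 9.01 ± 3.59, 10.2 ± 0.901 and 18.6 ± 9.90 CPM (SD, n = 4 each) in the same order. The log2 difference of knockdown from scramble morphine was 0.87 (SE 0.33), a fold of 1.82, and that from saline was 1.05 (SE 0.33), a fold of 2.07. Between morphine and saline it was 0.18 (SE 0.33).

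Myl9 (chromosome 2, 156775420 to 156781658, plus strand) was the contractile gene with the smallest spread. In the same order of libraries it measured 9.67, 7.61, 9.57 and 10.7 CPM with saline, 11.9, 10.3, 9.68 and 11.6 CPM with scramble and morphine, and 20.8, 13.003, 13.1 and 14.9 CPM with knockdown. Its knockdown libraries lay above every library of both scramble groups. Means were 9.38 ± 1.29, 10.9 ± 1.08 and 15.4 ± 3.67 CPM (SD, n = 4 each). Knockdown differed from scramble morphine by 0.50 (SE 0.15) and from saline by 0.72 (SE 0.15) on the log2 scale, folds of 1.42 and 1.64. Morphine differed from saline by 0.22 (SE 0.15).

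Tagln encodes transgelin, an actin-binding protein of smooth muscle (chromosome 9, 45929619 to 45936058, minus strand). It measured 4.63, 3.99, 4.15 and 8.15 CPM with saline, 6.40, 4.71, 6.19 and 5.12 CPM with scramble and morphine, and 18.8, 6.41, 4.94 and 7.54 CPM with knockdown. Saline replicate 5 and knockdown replicate 1 were the highest of their groups, and the remaining knockdown libraries lay inside the range of saline. Of these, the library at 4.94 CPM also lay inside the range of scramble morphine. Those at 6.41 and 7.54 CPM lay above its highest library, at 6.40 CPM. The log2 difference of knockdown was 0.75 (SE 0.37) from scramble morphine and 0.85 (SE 0.37) from saline, while morphine differed from saline by 0.10 (SE 0.37). The antisense gene Gm48529 covers 62.4% of the exon length of Tagln and held 38 to 180 counts a library, against 230 to 899 for Tagln. The protein-coding gene Pcsk7, on the opposite strand, covers 5.43% of it and held 944 to 1818 counts. No source used here says whether counting used the strand, so reads of Tagln and these genes may not be told apart.

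Myh11, the heavy chain of smooth muscle myosin (chromosome 16, 14194535 to 14291372, minus strand), showed the same 2 high libraries. Its levels were 10.6, 9.20, 8.74 and 17.6 CPM with saline, 9.27, 11.9, 10.96 and 11.5 CPM with scramble and morphine, and 32.8, 10.1, 14.8 and 16.3 CPM with knockdown. Knockdown replicate 2 lay inside the range of scramble morphine. The log2 difference of knockdown was 0.76 (SE 0.33) from scramble morphine and 0.68 (SE 0.33) from saline, and that of morphine from saline was -0.08 (SE 0.33).

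Over these 4 genes the median log2 difference of knockdown from scramble morphine was 0.76, and without knockdown replicate 1 it was 0.32, with Acta2 at 0.43, Myl9 at 0.32, Tagln at 0.17 and Myh11 at 0.33. From saline the median was 0.78, and 0.40 without that library, with Acta2 at 0.61, Myl9 at 0.54, Tagln at 0.27 and Myh11 at 0.25. The median over all genes tested was 0.0040 and -0.0019 in these comparisons. With the share of the ribosomal RNA locus as a covariate, the median from scramble morphine was -0.59, the opposite sign, and that from saline was 0.33. With this covariate the median of morphine against saline moved from 0.14 to 0.91. Because the share also differed between the groups, its part in these differences and that of the group cannot be told apart. The coefficient of variation (SD over mean) of the 4 genes was 23.8 to 67.1% with knockdown, 13.7 to 39.9% with saline and 8.84 to 14.7% with scramble and morphine. The order of knockdown above saline was not kept without knockdown replicate 1. Over the other 3 knockdown libraries the value was 15.6% for Acta2, 7.93% for Myl9, 20.6% for Tagln and 23.6% for Myh11, each below its value with saline. Saline kept its own highest library for these genes, replicate 5, so the groups were not trimmed alike and no order is read from these values. Counting error alone gave at most 6.59% for these genes, at the lowest count of Tagln.

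**Figure D3:**
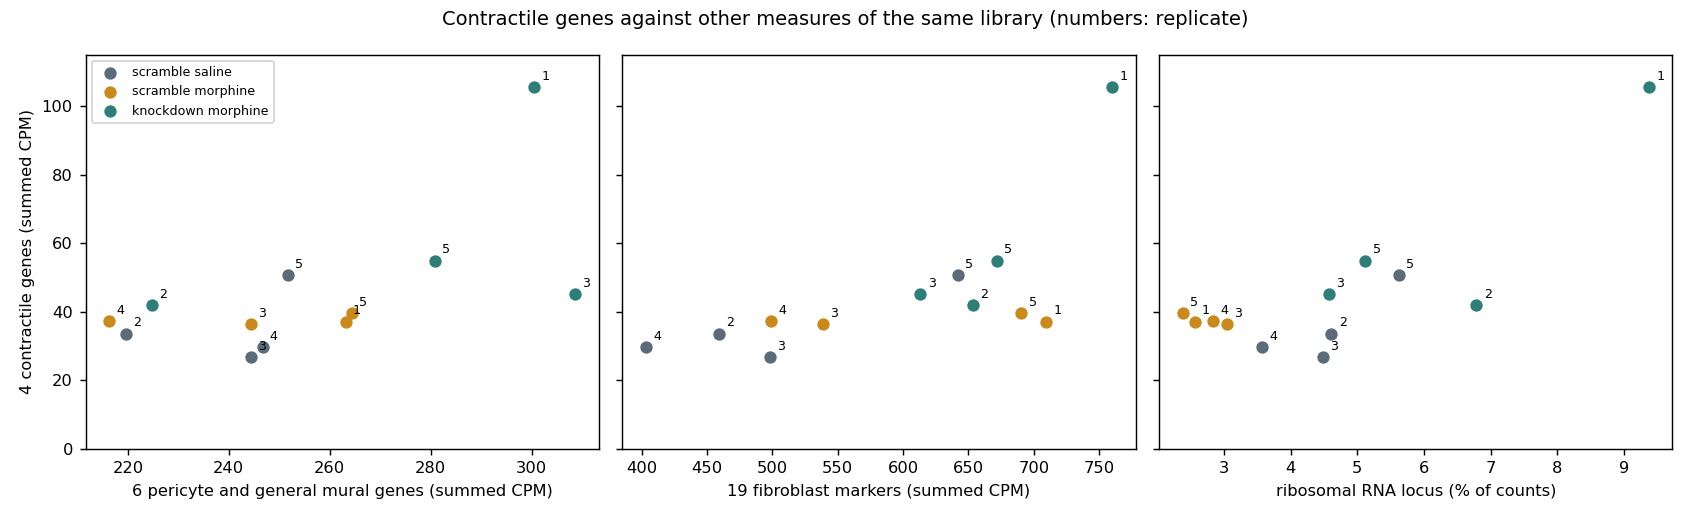
Summed level of the 4 contractile genes (y axis, CPM) against the summed level of the 6 pericyte and general mural genes, the summed level of 19 fibroblast markers (x axes, CPM) and the ribosomal RNA locus (x axis, percent of counts), 1 point per library numbered by replicate. Knockdown replicate 1 stands apart with 105 CPM on the y axis and 9.38% at the ribosomal locus, and the other 11 libraries lie between 26.8 and 54.9 CPM.

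With knockdown replicate 1 included, the pericyte and general mural genes differed less between knockdown and the scramble groups. Without that library the sets overlapped. The log2 differences from scramble morphine were then 0.23 for Notch3 and 0.18 for Pdgfrb, against 0.17 for Tagln. Pdgfrb, the receptor for PDGF-B, lies at chromosome 18, 61045150 to 61085061 (plus strand). It measured 28.2, 32.2, 31.4 and 36.2 CPM with saline, 37.5, 34.7, 30.9 and 37.3 CPM with scramble and morphine, and 46.9, 36.2, 45.1 and 38.6 CPM with knockdown. Every knockdown library was above every saline library, although knockdown replicate 2 and saline replicate 5 both round to 36.2. Means were 32.0 ± 3.29, 35.1 ± 3.08 and 41.7 ± 5.11 CPM (SD, n = 4 each). Knockdown differed from saline by 0.38 (SE 0.10) and from scramble morphine by 0.25 (SE 0.10) on the log2 scale, and morphine from saline by 0.13 (SE 0.10).

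Notch3, the Notch receptor of mural cells (chromosome 17, 32120820 to 32166852, minus strand), was high in knockdown replicates 1 and 3 and in saline replicate 4. Its levels were 27.1, 30.7, 38.1 and 31.7 CPM with saline, 31.6, 28.6, 26.4 and 30.4 CPM with scramble and morphine, and 43.4, 30.0, 42.4 and 31.2 CPM with knockdown. The log2 difference of knockdown was 0.33 (SE 0.13) from scramble morphine and 0.20 (SE 0.13) from saline, and that of morphine from saline was -0.12 (SE 0.13). Knockdown replicates 2 and 5 lay inside the range of both scramble groups.

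Rgs5 (chromosome 1, 169655501 to 169695813, plus strand) had close means in the scramble groups. It measured 79.5, 92.7, 85.7 and 88.4 CPM with saline, 87.1, 91.0, 77.9 and 91.0 CPM with scramble and morphine, and 95.0, 72.5, 109 and 105 CPM with knockdown. The knockdown group held both the lowest and the highest library of the 12. Means were 86.6 ± 5.54, 86.7 ± 6.20 and 95.6 ± 16.5 CPM (SD, n = 4 each), and the log2 difference of knockdown from scramble morphine was 0.14 (SE 0.10).

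Vtn (chromosome 11, 78499091 to 78502324, plus strand) measured 70.3, 69.9, 73.7 and 80.6 CPM with saline, 91.5, 75.1, 68.8 and 90.0 CPM with scramble and morphine, and 97.7, 73.8, 94.5 and 88.2 CPM with knockdown. The ranges of all 3 groups overlapped. Knockdown differed from saline by 0.27 (SE 0.10), knockdown from scramble morphine by 0.12 (SE 0.10), and morphine from saline by 0.15 (SE 0.10).

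Kcnj8 and Abcc9 encode the pore (Kir6.1) and the sulphonylurea receptor (SUR2) of the ATP-sensitive potassium channel of mural cells. The genes are neighbours on chromosome 6, Kcnj8 at 142564837 to 142571614 and Abcc9 at 142587862 to 142702315, both on the minus strand with 16247 bp between them. Abcc9 measured 11.6, 14.1, 13.2 and 12.003 CPM with saline, 11.2, 12.1, 8.69 and 12.5 CPM with scramble and morphine, and 14.3, 9.15, 13.8 and 13.8 CPM with knockdown. Scramble morphine replicate 4 and knockdown replicate 2 were its low libraries. Kcnj8 measured 3.09, 4.99, 4.63 and 2.98 CPM with saline, 4.39, 3.04, 3.61 and 3.34 CPM with scramble and morphine, and 3.59, 3.28, 3.76 and 3.82 CPM with knockdown, with all 3 ranges overlapping. The log2 difference of knockdown from scramble morphine was 0.20 (SE 0.15) for Abcc9 and 0.0072 (SE 0.19) for Kcnj8, and from saline it was 0.0049 (SE 0.15) and -0.12 (SE 0.19). Kcnj8 was the least deeply counted of the 10 genes, with 132 to 290 counts a library. Its counting error was 8.70% at the lowest count, that of knockdown replicate 2. This was below its coefficient of variation of 26.5% with saline and 16.1% with scramble and morphine, but above the 6.66% with knockdown.

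Over the 6 pericyte and general mural genes the median log2 difference was -0.06 for morphine against saline, 0.17 for knockdown against scramble morphine and 0.17 for knockdown against saline. Their coefficients of variation were 6.40 to 26.5% with saline, 7.14 to 16.1% with scramble and morphine and 6.66 to 19.4% with knockdown. The ratio of the summed contractile level to the summed pericyte level was 0.146 ± 0.0411 in the saline group, 0.153 ± 0.0138 in the scramble morphine group and 0.220 ± 0.0900 in the knockdown group (SD, n = 4 each). It reached 0.351 in knockdown replicate 1, and the other 3 knockdown libraries had a mean of 0.176 ± 0.0261 (SD, n = 3), while the lowest knockdown value of 0.146 lay inside both scramble ranges.

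**Figure D4:**
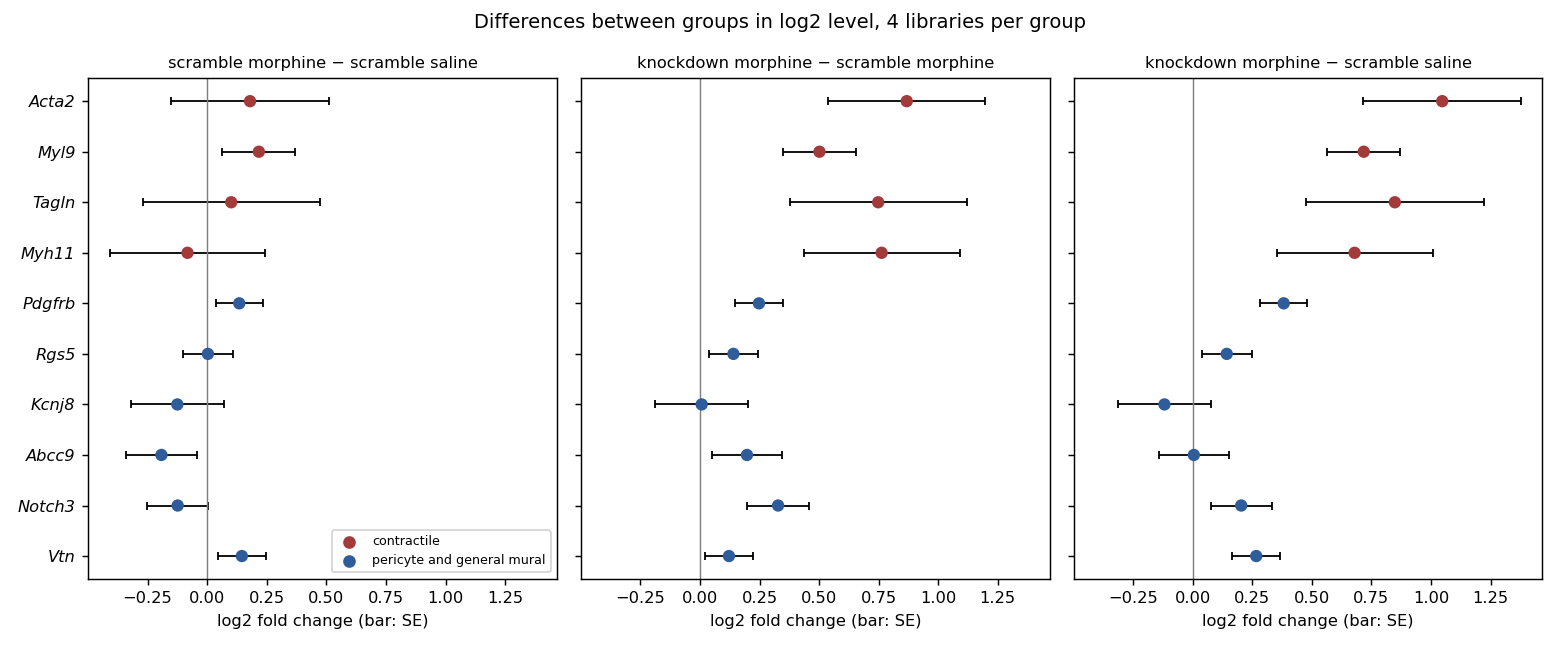
Log2 fold change (x axis, bars for the SE) of each gene (y axis) in the 3 comparisons, contractile genes in red and pericyte and general mural genes in blue. Contractile values lie between 0.50 and 0.87 for knockdown against scramble morphine, against 0.0072 to 0.33 for the pericyte and general mural genes. Without knockdown replicate 1 (not drawn) the sets overlapped, with Tagln at 0.17 and Notch3 at 0.23.

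The first comparison, morphine against saline under the scramble virus, asks what differed with the drug after extinction. Of the 10 mural genes, 6 had a higher mean with morphine and 4 a lower one, with log2 differences from -0.19 for Abcc9 to 0.22 for Myl9 and a median of 0.05. By edgeR's quasi-likelihood test with Benjamini-Hochberg adjustment over all genes, 0 of 10 passed an adjusted p of 0.05, where 0% of all genes tested passed. At an unadjusted p under 0.05 there were 0 of 10, against 765 of 21958 genes. DESeq2 called 0 of 10, with 0.0182% of genes called. All 10 genes overlapped between the groups, where 1.55% of genes had every morphine library above every saline library and 1.77% every one below. An adjusted p above the threshold does not show that levels were equal.

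The second comparison, knockdown against scramble virus with morphine in both, compares the viruses. All 10 genes had a higher mean with knockdown, with a median log2 difference of 0.29 and 11131 of 21958 genes above 0. By edgeR 0 of 10 passed, where 0% of all genes passed, and the smallest adjusted p was 0.289, for Myl9. At an unadjusted p under 0.05 there were 5 (Acta2, Myl9, Myh11, Pdgfrb and Notch3), against 2643 of all genes. DESeq2 called 0 of 10, with 0.828% of genes called. Acta2 and Myl9 were without overlap, where 2.59% of genes were higher and 3.26% lower without overlap. Since the genes were chosen with results of these same libraries in view, nothing is read from these shares, here or in the other comparisons.

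The last comparison set knockdown with morphine against scramble with saline, so virus and drug differ together, and it shares its libraries with the first and second. Of the 10 genes 9 had a higher mean with knockdown, Kcnj8 being the exception, with a median of 0.32. By edgeR 0 of 10 passed, where 0.0137% of genes (3 of 21958) did, and the smallest adjusted p was 0.214, for Myl9. At an unadjusted p under 0.05 there were 5 (Acta2, Myl9, Tagln, Pdgfrb and Vtn), against 2052 of all genes. DESeq2 called Myl9 (adjusted p = 0.00396) and Pdgfrb (adjusted p = 0.0451), where 0.831% of genes were called. The same pair were higher without overlap, where 2.18% of genes were higher and 2.16% lower without overlap.

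Other genes of the same cells were read from lists chosen with earlier results of these data known. Of 28 further contractile and smooth muscle genes, 21 had a higher mean with knockdown than with scramble morphine and 0 passed, with a median log2 difference of 0.10. In the comparisons of morphine and of knockdown with saline, 12 and 22 of them were higher, with medians of -0.04 and 0.10. The 3 with the highest levels showed small differences: for knockdown against scramble morphine, Rgs4, a regulator of G-protein signalling that neurons also express, gave -0.08 (SE 0.09), Mrtfb, a coactivator of SRF, 0.10 (SE 0.07), and the tropomyosin gene Tpm1 0.11 (SE 0.07). Over the list, differences of knockdown from scramble morphine ran from -0.89 for Ppp1r14a to 1.58 for Myocd. Myocd was near the floor, at 0.23 against 0.07 CPM (SE of the log2 difference 0.99). Without overlap, 1 gene was higher and 1 lower, beside 2.59% and 3.26% of all genes. The higher was Pln, at 2.83 against 1.12 CPM (log2 difference 1.34, SE 0.34). The lower was Ppp1r14a, at 2.84 against 5.26 CPM (SE 0.23). The summed level of this list lay between 1283 and 1403 CPM in all 12 libraries, and many of its members are also expressed outside vessels.

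Of 28 further pericyte and general mural genes, 20 were higher with knockdown than with scramble morphine, 22 with knockdown than with saline and 17 with morphine than with saline, and 0 passed in any comparison. Medians were 0.17, 0.16 and 0.08. Gucy1b1 and Gucy1a1, the subunits of the nitric oxide receptor, differed between knockdown and scramble morphine by -0.28 (SE 0.14) and -0.0019 (SE 0.13), and the transcription factor gene Zic1 by 0.14 (SE 0.16). Of 34 genes of the PDGF, Notch, TGF-beta and angiopoietin signals between endothelium and mural cells, 17, 22 and 24 were higher for morphine against saline, knockdown against scramble morphine and knockdown against saline, with medians of 0.0045, 0.15 and 0.10 and 0 passing. S1pr1, a sphingosine phosphate receptor, differed by -0.08 (SE 0.08), Smad3, a mediator of TGF-beta signals, by 0.0099 (SE 0.08), and the Notch ligand gene Jag2 by 0.06 (SE 0.08) between knockdown and scramble morphine. At an unadjusted p under 0.05 by edgeR, these 3 lists held 3 of 28, 1 of 28 and 8 of 34 genes for knockdown against scramble morphine, beside 2643 of 21958 over all genes. They held 1, 2 and 1 for morphine against saline, beside 765, and 4, 6 and 7 for knockdown against saline, beside 2052.

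Markers of neighbouring cell types also differed in mean level between the groups. All 20 endothelial markers were detected, and 16 were higher with knockdown than with scramble morphine (median 0.23), their sum running from 582 to 781 CPM with knockdown, 536 to 621 with scramble and morphine and 528 to 759 with saline. The glucose transporter gene Slc2a1 differed by 0.27 (SE 0.10), the VEGF receptor gene Flt1 by 0.23 (SE 0.09) and the transporter gene Slco1a4 by 0.16 (SE 0.11). All 19 fibroblast markers were detected, and 17 were higher in that comparison (median 0.28). Of the 19, 18 were higher with knockdown than with saline (median 0.79), and all 19 with scramble and morphine than with saline (median 0.40). For knockdown against saline, 16 of the 19 had an unadjusted p under 0.05 by edgeR, beside 2052 of 21958 genes. Without overlap 6 were higher and 0 lower, beside 2.18% and 2.16% of all genes, and 0 passed. The endothelial markers held 1 of 20 at that p. The fibroblast sums were 613 to 760, 499 to 709 and 403 to 642 CPM in the same order of groups as the endothelial sums. Among them Fn1 (fibronectin) differed by 0.55 (SE 0.20), Igf2 by 0.32 (SE 0.30) and Col6a1 by -0.58 (SE 0.17) between knockdown and scramble morphine. Red cell genes summed to 117 to 198 CPM with knockdown, 118 to 187 with scramble and morphine and 96.8 to 415 with saline. No marker of these lists was at 0 in every library, and their part in the mural gene differences was not tested.

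Other cell types in the tissue gave smaller or opposite medians between knockdown and scramble morphine, at -0.08 over 12 astrocyte markers, -0.17 over 11 microglia and macrophage markers, -0.27 over 9 oligodendrocyte markers and 0.03 over 8 neuron markers. Of the 11 microglia and macrophage markers, 5 were higher. These were Csf1r (0.03) and the border macrophage genes Mrc1 (1.01, SE 0.19), Lyve1 (1.08, SE 0.52), Cd163 (0.33, SE 0.39) and Pf4 (0.17, SE 0.33). Lyve1 and Pf4 had low levels. The rest were lower, among them the microglia gene Tmem119 (-0.36, SE 0.12), so this median does not describe the macrophage genes. Of 6 choroid plexus and ependyma markers, Folr1 and Tmem212 held at most 6 counts in any library and were not tested, and the summed level of the list was 4.47 to 9.92 CPM.

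How the 10 genes varied together between libraries of the same group was read for the contractile and the pericyte sets, which were fixed beforehand. Deviations of log2 CPM from the group mean were correlated over the 12 libraries, which share one scaling, and the values are given as a description. The 6 pairs of contractile genes had Pearson correlations of 0.77 to 0.93 (median 0.86), with Acta2 and Tagln at 0.93. Without knockdown replicate 1 they were 0.46 to 0.84 (median 0.66). The 15 pairs of pericyte and general mural genes ran from 0.09 to 0.89 (median 0.61), and from 0.11 to 0.93 (median 0.61) without that library. The 24 pairs between the sets ran from -0.45 to 0.67 (median 0.32), with a median of 0.13 without it. The sets were not cleanly separated. Without knockdown replicate 1, Myl9 had 0.66 with Vtn, against 0.60 with Tagln and 0.46 with Myh11.

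Within the pericyte and general mural genes, Rgs5 went with Abcc9 (0.89) and Pdgfrb with Vtn (0.87) and Notch3 (0.78). Kcnj8 stood apart, with correlations of 0.32 to its neighbour and partner subunit Abcc9, 0.09 to Pdgfrb and -0.45 to Acta2. Counting error was larger for Kcnj8 than for the other 9 genes. Knockdown replicate 2 was the low library for Rgs5 and, within its group, for Abcc9.

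**Figure D5:**
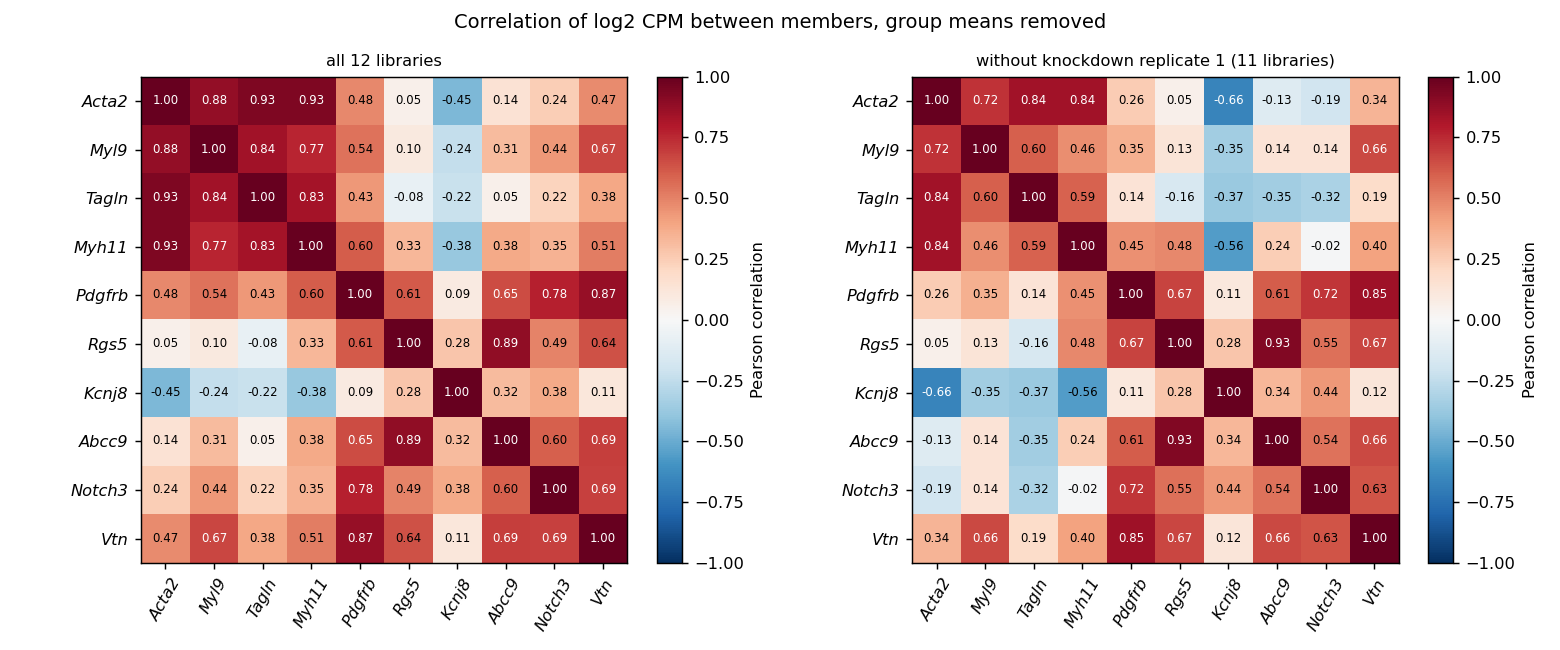
Pearson correlations of log2 CPM between the 10 genes (both axes) with group means removed, over 12 libraries (left) and over 11 without knockdown replicate 1 (right). Contractile pairs range from 0.77 to 0.93 on the left and from 0.46 to 0.84 on the right, and Kcnj8 forms the palest row.

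The mean deviation of the contractile genes had a Pearson correlation of 0.30 (Spearman 0.26) with that of the pericyte and general mural genes over 12 libraries, and of 0.11 without its 2 farthest libraries, knockdown replicate 1 and saline replicate 5. With the fibroblast markers it had 0.55 (Spearman 0.66), and 0.32 without those libraries. The further contractile and smooth muscle list gave 0.76 (Spearman 0.64), and 0.38 without them. The list of signals between endothelium and mural cells gave 0.65 (Spearman 0.51) and 0.14. Choroid plexus and ependyma markers, which had low levels, gave 0.82 (Spearman 0.64) and 0.47. With the share of the ribosomal RNA locus the values were 0.70 (Spearman 0.42) and 0.08. This Pearson value depends on those 2 libraries, as does that with the list of signals. With neuron markers they were -0.69 (Spearman -0.60) and -0.55. The pericyte and general mural genes had a correlation of 0.70 (Spearman 0.73) with endothelial markers and 0.73 (Spearman 0.85) with the further pericyte list. Without knockdown replicate 2 and scramble morphine replicate 4 these were 0.36 and 0.58. The same genes had a correlation of 0.84 (Spearman 0.60) with microglia and macrophage markers and 0.80 (Spearman 0.70) with oligodendrocyte markers, and 0.62 and 0.48 without those libraries.

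Among 15972 genes with a mean of at least 1 CPM, those most like the contractile genes over the 12 libraries, group means removed, were Fbln5 (Pearson 0.93), which encodes the elastic fibre protein fibulin-5, the transcription factor gene Zic5 (0.92), Mthfd1, Kremen1, Ccl9, Col5a2 (a fibrillar collagen chain), Wdfy1, Ezh2, Tfap4 and Hist1h1e (0.90). Without knockdown replicate 1 Zic5 stood at 0.92, Fbln5 at 0.83, and the other 8 between 0.73 (Wdfy1) and 0.84 (Kremen1). The genes most like the pericyte and general mural genes were Stk17b (0.98), Cav1 (0.97), the gene of caveolin-1, Sorbs3 (0.96), Gm6145, Itga1 (integrin alpha-1), Gm15624, Abca1, Swap70, Emcn (the endothelial sialomucin endomucin) and Tbc1d1 (0.91). Emcn was the 1 gene of these 20 that belonged to a list used here. For single genes the closest were Zic5 for Acta2 (0.93) and Tagln (0.92), Enpp1 for Myl9 (0.94), Foxo4 for Myh11 (0.93), Shc1, an adaptor of receptor tyrosine kinases, for Pdgfrb (0.94), Gm17484 for Rgs5 (0.97), Gm10791 for Kcnj8 (0.88), Gm15624 for Abcc9 (0.96), Grap2 for Notch3 (0.98) and Galm for Vtn (0.96). These are the top of a ranking over many genes and few libraries, so high values are a property of the selection.

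Reads of near-identical genes could have been shared in counting. The skeletal actin gene Acta1 held 225 to 392 counts a library and the enteric actin gene Actg2 0 to 25, against 347 to 1592 for Acta2. The light chain gene Myl12a held 669 to 1441 counts, against 402 to 996 for Myl9. Levels of Acta2 and Myl9 are therefore uncertain by an amount that the table does not give. The antisense gene Gm17276 covers 6.03% of the exon length of Notch3 with 35 to 101 counts, and 5330439B14Rik covers 1.89% of that of Abcc9 with 0 counts in every library.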

How the data were processed

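The authors deposited 1 table of raw counts per gene, made from stranded, paired-end libraries of oligo(dT)-purified mRNA per the labels' protocols. Per the submitters' processing notes the build was mm10 and the tools were edgeR, DESeq2, StringTie 1.3.4d, HISAT2 2.0.4 and cutadapt 1.9, with no role stated, so the counts may be estimates from StringTie. No source used here gives the annotation release or the use of strand in counting. Of 55401 gene identifiers, 55141 matched a symbol, and the rest took at most 0.0275% of counts.

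Groups came from the treatment labels and replicate numbers from the titles. The test was that of edgeR 4.0.16 under R 4.3.3 (filterByExpr with a minimum count of 10, TMM scaling, robust quasi-likelihood fit of all 12 libraries with 1 mean per group, 9 residual degrees of freedom), two-sided, adjusted by the Benjamini-Hochberg method at 0.05. The 10 mural genes and all gene lists were chosen with earlier results of these data known, so adjusted p-values of members describe and support nothing. Log2 CPM for correlations used a prior count of 2. All 10 genes were named in each comparison. Of other lists, the 3 with the highest mean CPM were named where 0 passed. A few more were named at the end of a range, without overlap, near the floor or apart from their list's median. Likeness was ranked as stated. Lists that gave no named gene are described by counts or medians. Alternatives were DESeq2 1.42.0, limma 3.58.1 (voom with sample weights), other scalings and filters, the compared groups alone, the replicate block, omission of each library in turn and the ribosomal RNA share as a covariate. Simulated data with known changes were used to test the steps. Coordinates and exon lengths came from GENCODE M21, which uses the mm10 assembly, and promoter sequences from RefSeq.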

Additional observations from a re-analysis of the deposited data

Results flagged for a closer look

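In each of the 3 groups, each of the 10 genes was examined for a library far from the other 3 by the gap to its nearest neighbour divided by the range of the group, with a critical value of 0.829 (Dixon's test at 95%). Of 30 such groups of 4 libraries, 2 exceeded it, and chance exceeds it in about 1 in 20. Tagln in scramble saline replicate 5 had a ratio of 0.845, at 8.15 CPM against 4.63 CPM in the nearest library of that group. Abcc9 in knockdown replicate 2 had a ratio of 0.900, at 9.15 CPM against 13.8 CPM in the nearest.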

How the results depend on the processing

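Over 22 alternatives and 10 genes, 206, 211 and 209 of 220 log2 differences kept their sign for morphine against saline, knockdown against scramble morphine and knockdown against saline, the order kept below, and 0, 0 and 2 passed an adjusted p of 0.05, the 2 being Myl9 and Pdgfrb with DESeq2. The count of all genes called was 0, 0 and 3. It was 4, 164 and 147 with DESeq2, and in the comparisons with knockdown 2 and 5 with no filter on low counts and 1 and 0 with limma voom. The compared groups alone gave 1 for morphine against saline and 5 for knockdown against saline. The latter gave 0 with library totals as the only scaling, with the ribosomal RNA share as a covariate, and with knockdown replicate 1 and saline replicate 5 both omitted, an alternative chosen after seeing the data. Same-numbered libraries had correlations of -0.06 to 0.27 between their deviations from group means, not above 0.1 in every pair. Replicate 5 gave 0.18, 0.16 and 0.27, above the highest value with another number (0.09, 0.11 and 0.09). Replicate 3 gave 0.0017, 0.00027 and -0.06, below it (0.09, 0.07 and 0.26). The number is therefore not known to pair the libraries, and a batch shared by some numbers was not tested. The replicate block gave 1, 2 and 0 genes called. With the ribosomal RNA share as a covariate the contractile median was 0.91, -0.59 and 0.33, and the pericyte median of knockdown against scramble morphine was 0.35. With the 2 libraries omitted the contractile median of knockdown against scramble morphine was 0.32. Why these settings differ was not tested. Leaving out each library in turn gave 0 to 0, 0 to 375 and 0 to 55 genes called, both highest counts without knockdown replicate 5, and 0 of the 10 mural genes each time. Medians of the 10 genes were then -0.0017 to 0.20, 0.17 to 0.37 and 0.23 to 0.39, of the contractile genes 0.01 to 0.34, 0.32 to 0.93 and 0.40 to 1.05, and of the pericyte genes -0.12 to 0.03, 0.09 to 0.28 and 0.10 to 0.27. The lowest contractile medians of both comparisons with knockdown were those without knockdown replicate 1, and the highest of both comparisons with saline those without saline replicate 5. Kcnj8 had the fewest counts of the 10 genes, 132 in its lowest library, with a counting error of 8.70%.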
